A study of Mus musculus with 12 samples.

Results

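The pyruvate dehydrogenase and tricarboxylic acid (TCA) cycle mRNAs of mouse oocytes were followed through growth and meiotic maturation, with and without the RNA-binding proteins ZAR1 and ZAR2. The members were the 9 rows named Pdha1, Pdhb, Dlat, Cs, Idh3a, Ogdh, Suclg1, Fh1 and Mdh2 among the 23230 genes of the expression table. All 9 were among the 11502 genes that reached 1 FPKM (a fragment count set relative to transcript length and library size) in at least 1 library and were tested.

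Pyruvate dehydrogenase is the mitochondrial complex that turns pyruvate into acetyl-CoA, and the TCA cycle oxidises that acetyl group to feed the respiratory chain. Oocytes use pyruvate supplied by the surrounding follicle cells as their main fuel. Fully grown oocytes stop transcription, so most of their mRNAs are stored and are removed or translated during maturation.

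The study collected WT and Zar1/2-null oocytes from mice of a C57BL6/ICR hybrid strain at 3 stages. Each of these 6 groups had 2 libraries, made from 10 oocytes apiece. The null animals carried constitutive CRISPR/Cas9 knockouts of both Zar1 and Zar2, the latter listed as Zar1l. Per the labels, growing oocytes came from 13.5-day-old females (the study's methods give a slightly younger age), fully grown germinal vesicle (GV) oocytes from 21-day-old females 44 h after PMSG, and ovulated MII oocytes 16 h after hCG. Per the study's methods, superovulated females also received PMSG 44 h before hCG, and the labels give no age for the MII females. No other treatment is described for these groups. MII names the collection time, since the labels do not give the polar body status of the null oocytes. The paper reports that ovulated null oocytes stopped at metaphase I or telophase I, so genotype and meiotic stage cannot be told apart in these MII libraries. The paper also held WT oocytes in meiosis I with nocodazole and found the decay of selected mRNAs unaffected by RT-qPCR. No such arrested WT oocytes are among these libraries. Each library was made by Smart-seq2 from oligo-dT-primed RNA with ERCC spike-in RNAs added to the lysate. Levels are therefore given relative to the spike-ins, and loss of an mRNA and shortening of its poly(A) tail cannot be told apart. Nothing in the labels ties the 2 libraries of a group to separate animals, so p-values measure the spread between these libraries, which may be technical.

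The libraries matched their cell type. All 12 oocyte markers were detected in every group, and only Figla in WT MII oocytes had a mean under 1 FPKM (0.481 FPKM). The 16 granulosa and cumulus markers summed to between 5.22 and 33.5 FPKM, with Ptx3 at 0 in every library. The 7 immune markers summed to 21.0 to 24.2 FPKM in WT growing oocytes against 3.52 to 4.85 FPKM in null growing oocytes. C1qb made up most of the WT sum, with means of 21.7 FPKM in WT and 1.11 FPKM in null growing oocytes. Cd68 went the other way (0.727 and 3.04 FPKM), and Ptprc, C1qa and Cd3e were at 0 in both groups. The part of these markers in the results was not tested. Zar1l fell from 642 ± 3.21 FPKM in WT to 15.3 ± 3.04 FPKM in null growing oocytes (SD, n = 2). Zar1 mRNA was not removed in the same way, at 664 ± 86.2 FPKM in WT against 433 ± 37.3 FPKM in null growing oocytes, and at MII it was higher in null oocytes (log2 difference 1.29, limma adjusted p = 0.000381). The labels do not give the position of the edit. The paper describes a small deletion with a stop codon soon after the Zar1 start site, and reports loss of ZAR1 protein. The Zar1 mRNA level therefore does not check the genotype.

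The 3′ ends of the members are shown because the tail of a stored mRNA is controlled by signals near its end. In GENCODE M1 gene models on mm9 (NCBIM37), 5 of 9 members carried AATAAA in the last 100 bases of the transcript, as did 65.7% of 10102 genes, and 3 of 9 carried ATTAAA, as did 21.9%. Only Cs had both, and neither was found in this window of Ogdh and Mdh2. The windows below read 5′ to 3′ on the transcript strand, with the poly(A) signal in capitals, and each lies in the last exon, in the 3′ UTR.
Pdha1, chrX:156560158-156560187, minus strand: gctgtgaaaaggaaacgaATTAAActtgtt
Pdhb, chr14:8998519-8998548, minus strand: ttaattgttttgataaggAATAAAggggat
Idh3a, chr9:54452431-54452460, plus strand: tggctttgggttcacagtAATAAAgaactt
Suclg1, chr6:73226860-73226889, plus strand: tgtgtaacagagacagatAATAAAtctatc

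Other short motifs were searched on the transcript strand in the same last 100 bases. The cytoplasmic polyadenylation elements TTTTAT and TTTTAAT were present in 20.1% of genes, and among the members TTTTAT was found in Cs and Fh1. Both matches lie 3′ of the AATAAA, between it and the transcript end. They end 8 bases from the transcript end in Cs and 9 bases in Fh1. Whether they act as such elements was not tested. The translational control sequence, a motif bound by ZAR proteins in Xenopus, was searched as ATTATCT or as one of its close variants, namely ATTGTCT as well as TTTATCT with its own variant TTTGTCT. It was found in 5.28% of genes and, among the members, in Pdhb. The AU-rich pentamer ATTTA, which lies inside none of these motifs as searched, was present in 23.3% of genes and in Ogdh. These windows carry the found motif in capitals, and a match is a description of the letters, not of binding.
Pdhb, chr14:8998549-8998578, minus strand: tctaagaagtatATTATCTacatttgctgt
Cs, chr10:127799506-127799535, plus strand: taaaaataataaatgtTTTTATtaacaatg
Fh1, chr1:177530505-177530534, minus strand: gcaaaataaagtttaTTTTATaaaagaaaa
The annotated 3′ UTRs ranged from 183 bases in Mdh2 to 1792 bases in Dlat, against a median of 977 bases over 10609 genes, and those of Suclg1 (203 bases) and Pdhb (345 bases) were also short.

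In WT growing oocytes the 9 mRNAs spanned 15.8 to 137 FPKM. Mdh2, malate dehydrogenase of the mitochondrion, was the most abundant at 137 ± 12.8 FPKM (SD, n = 2) and stood above 92% of the tested genes. Cs, the citrate synthase that starts the cycle, followed at 98.4 ± 3.77 FPKM, then Fh1, the fumarase, at 91.7 ± 2.60 FPKM. Pdhb and Idh3a came next with 81.3 ± 3.12 and 75.3 ± 0.147 FPKM. A lower tier held Pdha1 (34.7 ± 1.53 FPKM), Suclg1 (29.0 ± 1.95 FPKM), Dlat (21.1 ± 1.55 FPKM) and Ogdh (15.8 ± 0.351 FPKM), and no neighbours in this order had overlapping libraries. The order in WT MII oocytes was Cs (26.9 ± 5.75 FPKM), Pdhb, Idh3a, Ogdh, Fh1, Suclg1, Dlat, Pdha1 and Mdh2 (0.692 ± 0.203 FPKM), where Fh1 and Suclg1 overlapped and the other neighbours did not.

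The summed level of the 9 members fell with each stage. It was 573 and 596 FPKM in WT growing, 472 and 391 FPKM in WT GV, and 69.5 and 81.2 FPKM in WT MII libraries. In null oocytes it was 582 and 520 FPKM in growing, 284 and 355 FPKM in GV, and 82.7 and 82.3 FPKM in MII libraries. As a share of all FPKM in the library, the members held 0.0897% and 0.0942% in WT growing oocytes and 0.0542% and 0.0671% in WT MII oocytes. In the null oocytes the share was 0.103% in both growing libraries and 0.0394% and 0.0467% at MII.

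**Figure D1:**
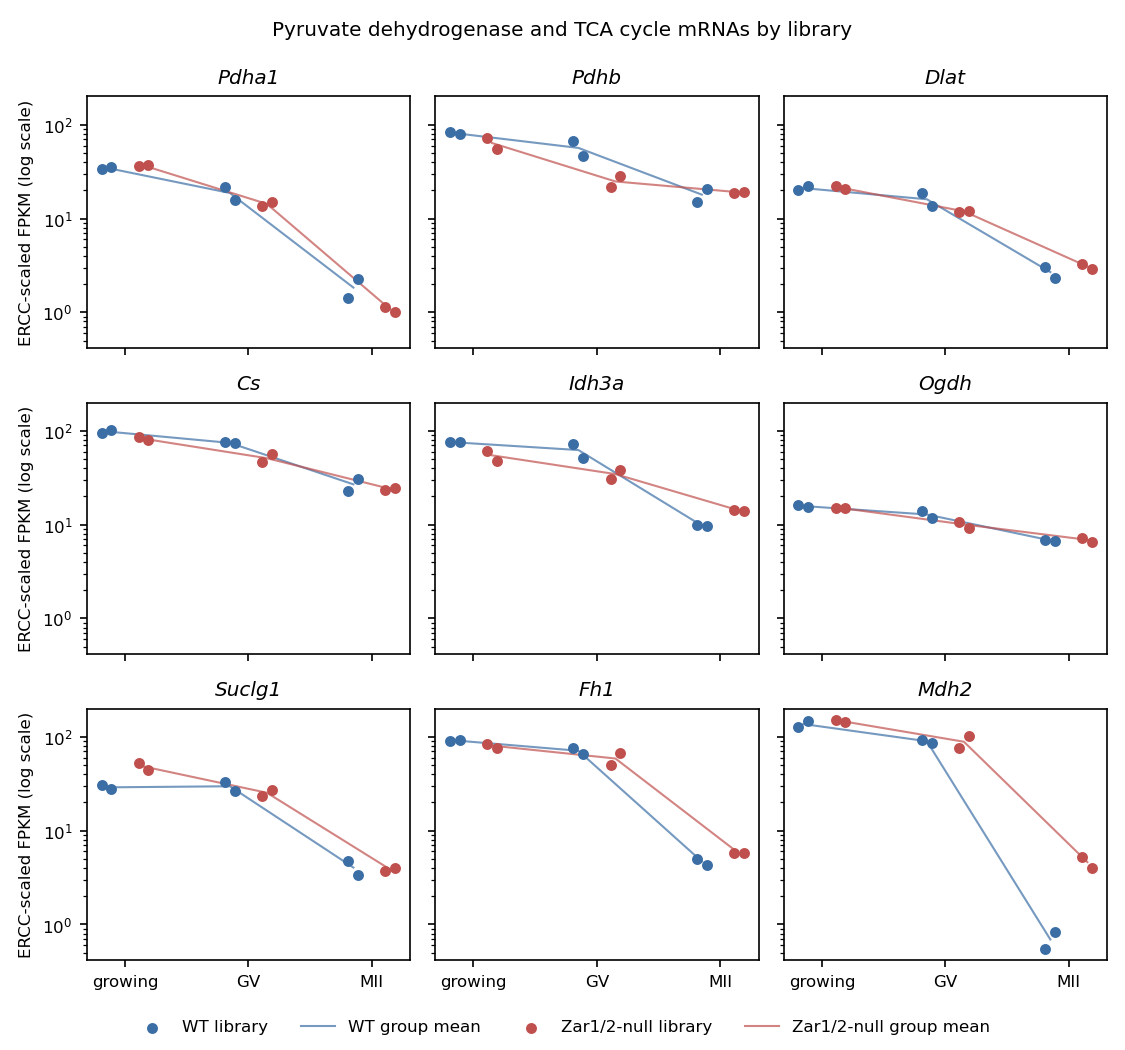
ERCC-scaled FPKM (log axis) of the 9 mRNAs in growing, GV and MII oocytes, with 1 point per library and lines through the group means of WT (blue) and Zar1/2-null (red) oocytes. Mdh2 drops to 0.548 and 0.836 FPKM in WT MII oocytes but stays at 5.22 and 4.03 FPKM in null MII oocytes, and the genotypes separate for Pdhb at GV but overlap at MII.

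The first comparison asked how loss of ZAR1/2 altered these mRNAs in growing oocytes. Of the 9 members, 1 rose and none fell in the limma test (Benjamini-Hochberg adjusted p under 0.05 over all tested genes). Over all genes 10.6% rose and 24.4% fell. The member was Suclg1, the alpha subunit that both forms of succinyl-CoA synthetase share. It was at 30.3 and 27.6 FPKM in WT and 52.8 and 43.9 FPKM in null libraries, which did not overlap. The log2 difference on the log2(FPKM + 1) scale was 0.72 ± 0.18 (SE, limma adjusted p = 0.00935). These values rested on 405 and 445 reads in WT against 828 and 931 reads in null libraries. The call was lost without WT growing replicate 2 (0.65, limma adjusted p = 0.0646) and without null growing replicate 1 (0.58, limma adjusted p = 0.0652). Neither partner subunit was called higher, so the ratio of Sucla2, the ATP-specific beta subunit, to Suclg1 was 3.55 and 3.68 in WT and 1.77 and 1.80 in null growing libraries.

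The other 8 members did not pass the test in growing oocytes. Idh3a, the catalytic alpha subunit of the NAD-dependent isocitrate dehydrogenase, was at 75.5 and 75.2 FPKM in WT and at 61.6 and 47.9 FPKM in null libraries. Pdhb, the beta subunit of the E1 pyruvate decarboxylase, was at 83.5 and 79.1 FPKM in WT and 72.9 and 54.8 FPKM in null libraries. Counting only whether libraries overlapped, 5 members had every null library below every WT library (Pdhb, Cs, Idh3a, Ogdh and Fh1), as did 47.4% of all genes, and Pdha1 and Suclg1 had every null library above, as did 22.4%. No member passed a 3-fold difference in either direction, where 0.982% of all genes were higher and 3.54% lower. The median log2 difference of the members was -0.06, beside -0.16 over all tested genes.

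In fully grown GV oocytes the shift was downward on the spike-in scale, where the median of all genes was -0.38, while with the ERCC factor removed that median was -0.03. None of the 9 members rose and 3 fell, Pdhb, Idh3a and Cs, beside 40.6% of all tested genes that fell and 2.83% that rose. The members' median log2 difference was -0.35. A share of 3 in 9 is thus near the background, and the members are described by their own values. In 6 members every null library lay below every WT library, as in 63.6% of all genes, and in none did every null library lie above, as in 6.79%. No member passed 3-fold, beside 0.461% of all genes that were higher and 4.2% lower by that much.

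Pdhb showed the widest gap. It was at 66.6 and 46.6 FPKM in WT GV libraries and at 21.6 and 28.1 FPKM in null GV libraries, with no overlap. The fall was 2.28-fold in the means, a log2 difference of -1.15 ± 0.22 (SE, limma adjusted p = 0.00215). It was called under each of the 21 alternative settings run, and with the ERCC factor removed it was -0.71 (limma adjusted p = 0.0160). Its E1 partner Pdha1, the alpha subunit that carries the sites of regulatory phosphorylation, was at 21.6 and 15.8 FPKM in WT and 13.5 and 15.1 FPKM in null libraries and was not called. The ratio of Pdhb to Pdha1 within a library, in which the spike-in factor cancels, was 3.08 and 2.94 in WT and 1.59 and 1.86 in null GV oocytes.

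Idh3a fell from 73.2 and 51.5 FPKM in WT to 30.6 and 38.5 FPKM in null GV oocytes. The libraries did not overlap, and the log2 difference was -0.82 ± 0.19 (SE, limma adjusted p = 0.00591). The call was lost without WT GV replicate 1 (-0.57, limma adjusted p = 0.0626) and with the ERCC factor removed (-0.38, limma adjusted p = 0.0778). The other subunits of the enzyme, Idh3b and Idh3g, were not called at GV, although Idh3g was called higher in the null with the ERCC factor removed (0.54, limma adjusted p = 0.0387), and the ratio of Idh3a to Idh3g was 1.65 and 1.57 in WT against 0.844 and 0.847 in null libraries.

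Cs fell from 75.3 and 73.3 FPKM to 46.1 and 56.0 FPKM, again without overlap. Its log2 difference was -0.54 ± 0.17 (SE, limma adjusted p = 0.0236). This was the least stable of the GV calls. It was lost with the ERCC factor removed (-0.09, limma adjusted p = 0.732), and without WT GV replicate 1 (-0.52), WT GV replicate 2 (-0.56) or null GV replicate 1 (-0.40), at limma adjusted p from 0.0600 to 0.129.

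The remaining 6 mRNAs were not called at GV. Dlat, the E2 acetyltransferase core of pyruvate dehydrogenase, was at 18.6 and 13.5 FPKM in WT and 11.7 and 12.2 FPKM in null libraries. Ogdh, the E1 subunit of the 2-oxoglutarate dehydrogenase complex, was at 13.9 and 11.7 FPKM in WT and at 10.8 and 9.31 FPKM in null libraries. For both genes the null libraries lay below the WT libraries. The libraries of Fh1 (76.6 and 65.6 against 50.7 and 66.8 FPKM), Suclg1 (33.1 and 26.4 against 23.6 and 27.2 FPKM) and Mdh2 (93.2 and 86.5 against 75.2 and 102 FPKM) overlapped between genotypes.

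**Figure D2:**
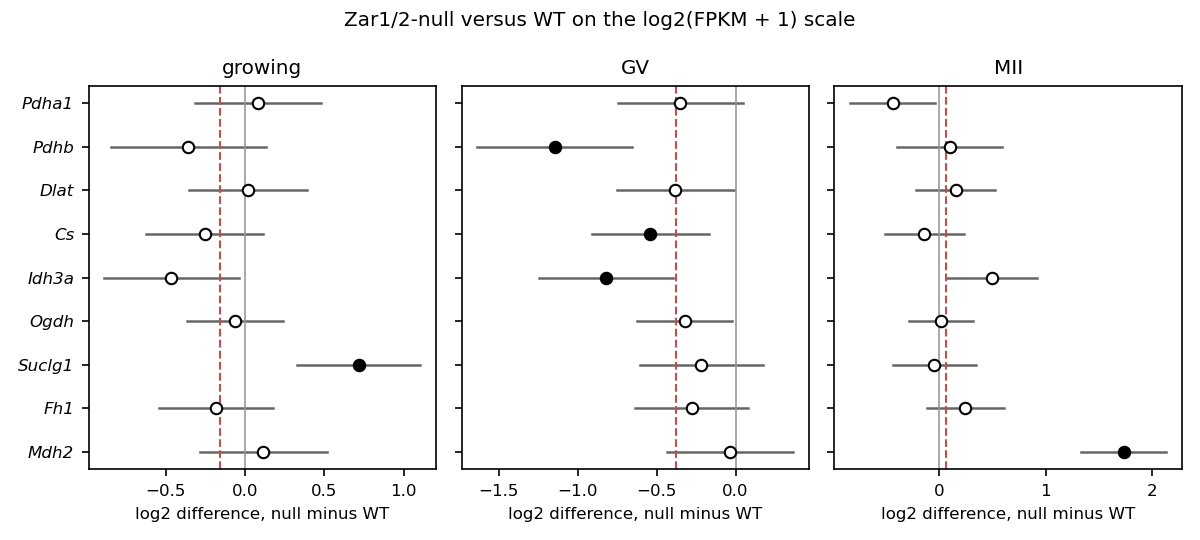
Log2 difference (null minus WT, x axis, on the log2(FPKM + 1) scale) of each mRNA at 3 stages, with limma 95% intervals. Filled points passed the test, the grey line marks 0 and the red dashed line the median of all tested genes. Suclg1 stands to the right in growing oocytes (0.72), Pdhb to the left at GV (-1.15) and Mdh2 to the right at MII (1.73).

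At MII, 1 of the 9 members was higher in null oocytes and none lower, beside 21.5% of all tested genes that were higher and 10.3% that were lower. The member was Mdh2, at 0.548 and 0.836 FPKM in WT and 5.22 and 4.03 FPKM in null libraries. These levels rested on 27 and 52 reads in WT and on 221 and 236 reads in null libraries, so the lowest WT value carried a counting error of 19.3%. With the WT mean of 0.692 FPKM set to 1 FPKM, the null level was at least 4.62-fold higher, and Mdh2 was the single member past 3-fold, as 7.49% of all genes were, with none of the members and 1.32% of genes 3-fold lower. The log2 difference was 1.73 ± 0.18 (SE, limma adjusted p = 2.06e-05), and it was called under each of the 21 alternative settings. Mdh2 thus stood above 42.3% of tested genes in WT MII oocytes and above 70.9% in null MII oocytes.

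The other members were closer between genotypes at MII. Idh3a was at 9.96 and 9.55 FPKM in WT and 14.3 and 14.0 FPKM in null libraries, and Fh1 was at 5.04 and 4.34 FPKM in WT and 5.74 in both null libraries. Neither passed the test. With Mdh2 they made 3 members whose null libraries lay above the WT libraries, as in 43.5% of all genes, and Pdha1 was the 1 member below, as in 27.8%. Pdha1 lay the other way, at 1.41 and 2.26 FPKM in WT and 1.14 and 1.00 FPKM in null libraries. It was not called in the main fit on the spike-in scale (-0.44, limma adjusted p = 0.0903). It was called lower once the ERCC factor was removed (-0.83, limma adjusted p = 0.00276). On the spike-in scale it was called lower with ERCC factors averaged within groups (-0.44, limma adjusted p = 0.0437). A pseudocount of 0.1 FPKM also gave a call (-0.69, limma adjusted p = 0.0251). For Pdhb the WT libraries (15.1 and 20.9 FPKM) spanned the null libraries (18.8 and 19.4 FPKM). The WT libraries of Cs (22.8 and 30.9 FPKM) likewise spanned the null ones (23.3 and 24.7 FPKM). Ogdh, Suclg1 and Dlat also overlapped.

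The growth comparison set GV against growing oocytes within each genotype. In WT oocytes, 2 of the 9 members fell, Pdha1 and Mdh2, beside 28.7% of all genes, and none rose, beside 2.77%. Pdha1 went from 33.7 and 35.8 FPKM to 21.6 and 15.8 FPKM (-0.87 ± 0.18, SE, limma adjusted p = 0.00647). Mdh2 went from 128 and 146 FPKM to 93.2 and 86.5 FPKM (-0.60 ± 0.18, SE, limma adjusted p = 0.0292). Neither was called with the ERCC factor removed. The Pdha1 call was also lost without WT GV replicate 2, and that of Mdh2 without any single one of the 4 libraries compared.

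In null oocytes all 9 members fell over the same interval, beside 55.9% of all genes that fell and 4.76% that rose, with a median log2 difference of -0.75 against -0.50. Pdhb (-1.32) and Pdha1 (-1.31) fell most, each to 38.9% of its growing mean. These were the 2 calls that stayed when the ERCC factor was removed. The other 7 ranged from -0.46 in Fh1, which turned to 0.09 with that factor removed, to -0.90 in Suclg1. The difference in change between genotypes was itself called for 1 member. Suclg1 kept 103% of its growing mean in WT and 52.4% in null GV oocytes (interaction -0.93 ± 0.25, SE, limma adjusted p = 0.0333), where 11.3% of all genes were called in this direction and 2.58% in the other. That call was lost in 13 of 21 alternative settings.

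Maturation lowered the whole group on the spike-in scale, although the direction turned for Cs, Pdhb and Ogdh in WT oocytes with the ERCC factor removed. In WT oocytes all 9 members were lower at MII than at GV, as were 93.4% of all tested genes, while 0.104% were higher. Their median log2 difference of -2.54 lay below the -1.28 of all genes. The members stood above 62.6% to 90.3% of tested genes in WT GV oocytes. The log2(FPKM + 1) scale shrinks changes in low genes. Member and all-gene medians are thus not like for like, in this and the other comparisons. Mdh2 fell furthest, to 0.770% of its GV mean, at least 89.9-fold with the MII mean set to 1 FPKM. Fh1 (15.1-fold) and Pdha1 (10.2-fold) also passed 10-fold, as did 15.7% of all genes. Ogdh kept 53.0% and Cs 36.2% of the GV mean, and Pdhb kept 31.8%. Suclg1, Idh3a and Dlat kept between 13.6% and 16.7%.

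Null oocytes kept more of some of these mRNAs. At MII, 8 of 9 members were lower than at GV, beside 68.7% of all genes and 0.209% that were higher, with a median of -1.67 against -0.72. Pdhb was the exception, at 76.7% of its GV mean (-0.35 ± 0.22, SE, not called), but its null GV level was already the lower one. Idh3a kept 41.0% and Mdh2 5.21%. Mdh2 (19.2-fold), Pdha1 (13.3-fold) and Fh1 (10.2-fold) again passed 10-fold, beside 6.66% of all genes. The percentage left of Pdha1 was 9.82% in WT and 7.5% in null oocytes, and that of Suclg1 13.6% and 15.2%.

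The difference between these 2 changes was tested as an interaction. It was called for Mdh2 (1.76 ± 0.26, SE, limma adjusted p = 0.000397), Idh3a (1.32 ± 0.27, SE, limma adjusted p = 0.00379) and Pdhb (1.24 ± 0.32, SE, limma adjusted p = 0.0117), all toward less loss in the null. Pdha1 was not called (-0.09), but it was called toward more loss in the null with the ERCC factor removed (-0.91, limma adjusted p = 0.0260) and under median scaling (-1.01, limma adjusted p = 0.00671). Over all genes, 33.9% were called toward less loss in the null and 0.643% toward more loss, so 3 of 9 is near the background. For Mdh2 the GV levels of the genotypes overlapped and the MII levels did not. For Pdhb the reverse held, with separate GV levels and overlapping MII levels. The null libraries of Idh3a lay below WT at GV, with a call, and above WT at MII, without one. The Pdhb interaction was lost with the ERCC factor removed (0.58, limma adjusted p = 0.133), without WT GV replicate 1 (0.99, limma adjusted p = 0.0568) and without WT MII replicate 1 (1.02, limma adjusted p = 0.0556).

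The direction of some maturation changes depended on the spike-in scaling. With the ERCC factor removed the median of all genes moved from -1.28 to -0.43 in WT and from -0.72 to -0.28 in null oocytes. Mdh2 (-4.89), Fh1 (-2.11), Pdha1 (-1.50), Suclg1 (-1.09), Idh3a (-0.88) and Dlat (-0.77) still fell in WT oocytes. Ogdh instead rose in both genotypes (0.81 in WT, limma adjusted p = 0.000426, and 0.49 in null, limma adjusted p = 0.0113). Pdhb rose in null oocytes (0.68, limma adjusted p = 0.00642) and was not called in WT (0.10), and Cs was called in neither genotype.

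**Figure D3:**
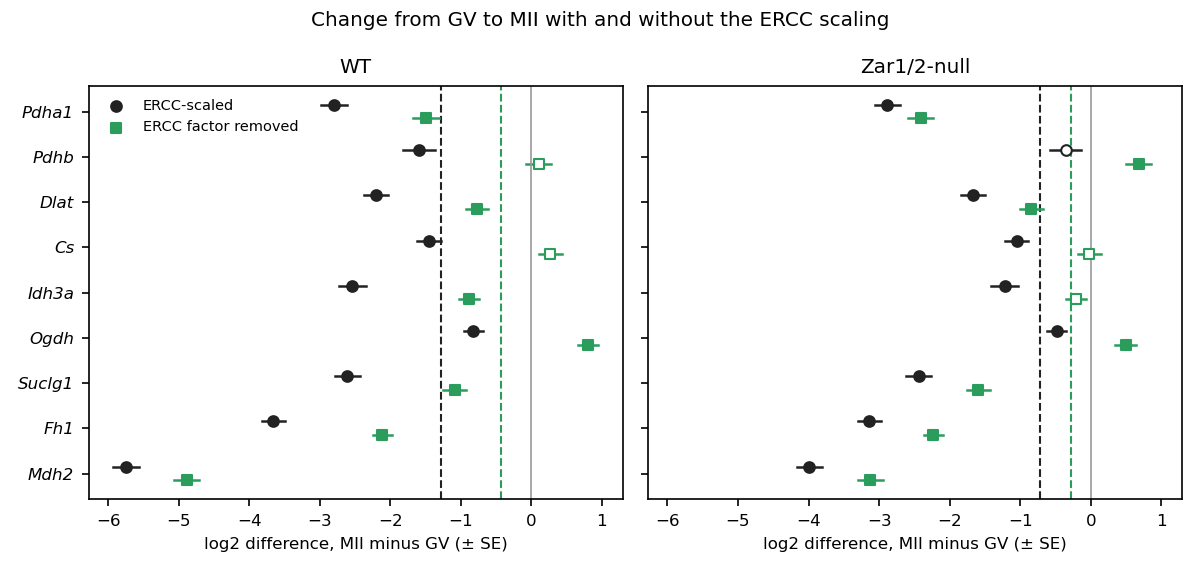
Log2 difference from GV to MII (x axis, ± SE) of each mRNA in WT and Zar1/2-null oocytes, with the deposited spike-in scaling (black circles) and with the ERCC factor removed (green squares). Filled symbols passed the test and dashed lines are the medians of all tested genes. Mdh2, Fh1 and Pdha1 lie far left of the medians under both scalings, and Ogdh crosses 0.

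Ratios of 2 mRNAs in the same library do not contain the spike-in factor. The pairs shown were chosen after their values were seen, and no test was run on them. The ratio of Cs to Mdh2 was 0.749 and 0.692 in WT growing and 0.808 and 0.848 in WT GV libraries, and it rose to 41.6 and 37.0 in WT MII libraries. In null oocytes it went from 0.567 and 0.544 through 0.612 and 0.548 to 4.47 and 6.13. The ratio of Pdhb to Pdha1 at MII was 10.7 and 9.23 in WT and 16.4 and 19.3 in null libraries, the reverse of the order at GV. The E1 subunit mRNAs, whose proteins assemble in equal number, were thus never at equal FPKM in any library.

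**Figure D4:**
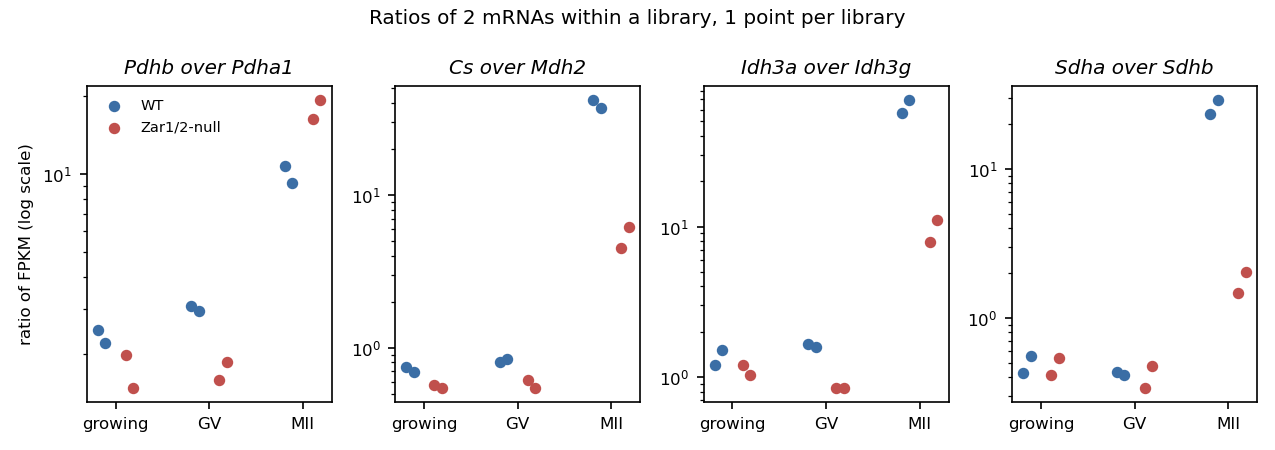
Ratio of FPKM of 2 mRNAs (log axis) in each library by stage, with 1 point per library, WT in blue and Zar1/2-null in red. At MII the WT libraries lie above the null libraries for Cs over Mdh2, Idh3a over Idh3g and Sdha over Sdhb, and below them for Pdhb over Pdha1.

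The other genes of the pathway place these values. Of 10 listed further genes of pyruvate dehydrogenase and its regulators, 8 were tested. In null growing oocytes 4 of the 8 were lower and none higher, and at GV 5 were lower and none higher. Over all tested genes, 24.4% were lower and 10.6% higher in growing oocytes, and 40.6% and 2.83% at GV. With the ERCC factor removed 3 of the 8 were lower and 1 higher at either stage. All-gene shares of calls are given on the spike-in scale only. Pdhx, the subunit that anchors E3 to the core formed by Dlat, was at 149 and 156 FPKM in WT and 62.3 and 44.6 FPKM in null growing libraries (-1.51, limma adjusted p = 0.000262). It was called lower in null oocytes at GV and MII too, the GV call being lost with the ERCC factor removed, and the ratio of Pdhx to Dlat in growing oocytes was 7.45 and 7.04 in WT and 2.81 and 2.17 in null libraries. Pdk3, a kinase that inactivates the complex by phosphorylating Pdha1 protein, was at 7.18 and 7.49 FPKM in WT against 23.0 and 19.9 FPKM in null MII libraries. Pdk3 was the 1 listed gene higher in null MII oocytes and Pdhx the 1 lower, beside 21.5% and 10.3% of all tested genes. With the ERCC factor removed, 1 of the list was higher and 5 were lower at MII.

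Of 16 further TCA cycle genes, 15 were tested. In null growing oocytes 1 was called higher and none lower, beside 10.6% and 24.4% of all tested genes. At GV none was higher and 4 were lower, beside 2.83% and 40.6% of all tested genes. Once the ERCC factor was removed, none of these 4 was called at GV and Idh3g was called higher. At MII 5 were higher and none lower, beside 21.5% and 10.3% of all tested genes. The list's median log2 difference was 0.41 beside 0.06 over all genes. The 5 higher genes were Sdhb, Idh3g, Idh3b, Sdha and Mdh1. All 5 were called higher without the ERCC factor too, where Sucla2 was called lower (-0.57, limma adjusted p = 0.0152). Sdhb, the iron-sulphur subunit of succinate dehydrogenase, was at 0.453 and 0.379 FPKM in WT and 13.8 and 9.88 FPKM in null MII libraries, while the catalytic subunit Sdha was at 10.6 and 10.9 against 20.2 and 20.1 FPKM. The ratio of Idh3a to Idh3g was 57.0 and 69.0 in WT and 7.93 and 11 in null MII libraries. Its WT values divide by an Idh3g level near 0, between 0.138 and 0.175 FPKM. In WT maturation all 15 fell on the spike-in scale, beside 93.4% of all tested genes. Once the ERCC factor was removed, 11 were lower and 3 higher. The interaction was called toward less loss in the null for 9 of 15, beside 33.9% of all tested genes. Without the ERCC factor it was called in that direction for 3 of 15 (Idh3b, Idh3g and Sdhb).

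Genes that supply pyruvate or enter the cycle from the side numbered 15, of which 13 were tested. In null growing oocytes 1 was higher and 3 were lower, beside 10.6% and 24.4% of all tested genes. At GV none was higher and 3 were lower, beside 2.83% and 40.6%. At MII 5 were higher and 1 lower, beside 21.5% and 10.3%. With the ERCC factor removed, 2 were higher and 2 lower in growing oocytes, 2 higher and 1 lower at GV, and 6 higher and 1 lower at MII. Ldhb, the lactate dehydrogenase subunit suited to making pyruvate from lactate, was at 273 and 257 FPKM in WT and 2834 and 2372 FPKM in null MII libraries. Got1, the cytosolic aspartate aminotransferase, was at 0.780 and 0.785 against 8.77 and 6.22 FPKM. Slc16a1, a carrier of lactate and pyruvate, was lower in null oocytes at every stage (-1.21 in growing, -1.71 in GV and -0.92 in MII oocytes). Of the 3 genes that attach lipoic acid, the cofactor of Dlat, Lias was called higher in null growing oocytes, at 6.44 and 6.64 FPKM in WT against 14.4 and 13.4 FPKM in null libraries. Lias was called higher again at MII, but at means under 1 FPKM (0.0850 in WT and 0.497 in null oocytes). Lipt2 was called lower in null oocytes at GV.

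**Figure D5:**
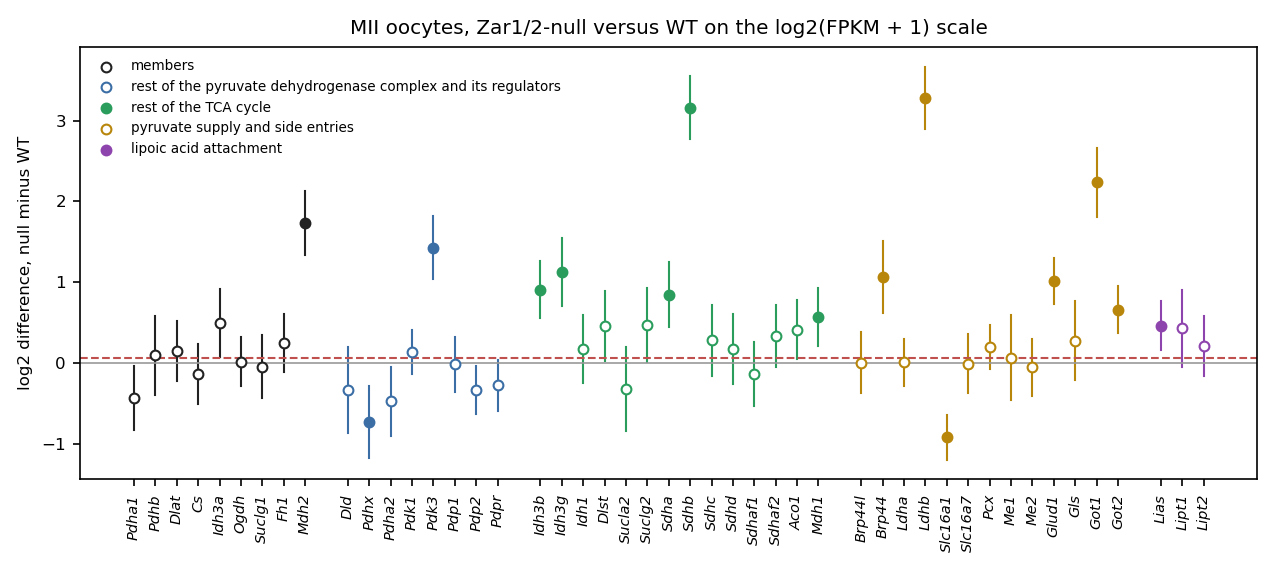
Log2 difference (null minus WT at MII, y axis, with limma 95% intervals) of the 9 members and of the tested genes of 4 pathway lists, with 1 gene not shown. Filled points passed the test, the grey line marks 0 and the red dashed line the median of all tested genes. Ldhb (3.29), Sdhb (3.16), Got1 (2.24) and Mdh2 (1.73) stand highest.

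The gene whose pattern over the 12 libraries was most like each member was sought among 11501 others, as the smallest root mean square difference of centred log2 values. Ogdh was closest to Ercc4 (0.0696), Cs to Shoc2 (0.102), Dlat to Gpr107 (0.116), Fh1 to 4921517L17Rik (0.121), Pdhb to Lamp2 (0.123) and Idh3a to Scfd1 (0.136). Pdha1 was closest to Clpx (0.151), Suclg1 to Bend5 (0.185) and Mdh2 to Rpl12 (0.220). No member was nearest to another member. The closest pair within the group was Idh3a and Dlat (0.245), where Dlat ranked 103 among the genes nearest Idh3a.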

How the data were processed

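Per the labels, reads were aligned with TopHat2 2.1.1 and quantified with Cufflinks 2.2.1 on mm9, and the authors scaled the deposited FPKM to ERCC spike-ins. The last scaling left a fixed factor per library, recovered from values that regain 6 significant digits without it (1 in WT growing, 0.225 to 0.862 elsewhere). Both WT growing libraries had a factor of 1, although the paper lists unlike ERCC percentages for them. They were thus not scaled to each other, and their SDs are not a spread on the spike-in scale. Whole read numbers per gene, relative to library depth, were recovered for 8 of 9 members (tolerance 0.05), not Ogdh, and give counting error only. Genes reaching 1 FPKM in at least 1 library were fitted on log2(FPKM + 1) with limma 3.58.1 in R 4.3.3 (trend, 6 group terms, 12 libraries, two-sided, Benjamini-Hochberg over 11502 genes), checked on simulated data. An exact permutation test of 2 against 2 libraries cannot go below p = 0.333. Fold rules (3 between genotypes, 10 for maturation) set means under 1 FPKM to 1. The named genes were the members, Zar1, Zar1l, the pathway lists, markers and nearest genes. Members and lists were chosen with earlier results of these data known. The table lists 0 mitochondrially encoded genes. The values of 1 listed pathway gene are not reported here. Alternatives were other scalings, pseudocount, filters, moderation without trend, a replicate block, fewer groups and leave-one-out.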

Additional observations from a re-analysis of the deposited data

Results flagged for a closer look

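For 4 members the change between stages differed between genotypes in the limma interaction test. Over all tested genes, 11.3% were called lower in the growth interaction and 33.9% toward less loss in the maturation interaction. These member counts are near that background. Suclg1 fell from growing to GV in null oocytes and was not called in WT oocytes (interaction -0.932 on the log2 scale), and the interaction call was lost in 13 of 21 alternative settings. Mdh2 (1.76), Idh3a (1.32) and Pdhb (1.24) lost less from GV to MII in null than in WT oocytes. Mdh2 kept its call under each of the 21 settings, Idh3a lost it under median scaling (0.48, limma adjusted p = 0.115), and Pdhb lost it in 5 settings. Groups of 2 libraries are too small to search for single outlying libraries.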

How the results depend on the processing

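Of 37 calls on the members over 81 results, 12 were lost under none of the 21 alternatives. With the ERCC factor removed and under median scaling, the calls at GV fell from 3 to 1, in WT growth from 2 to 0, in null growth from 9 to 2 and in the growth interaction from 1 to 0, and at MII they rose from 1 to 2 and 3. Members past 10-fold fell from 3 to 1 in WT and to 0 in null oocytes under both. Averaged ERCC factors gave 2 calls in growing oocytes, 3 at MII, 5 in WT growth and 5 in the maturation interaction. A pseudocount of 0.1 FPKM gave 3 at MII, 1 in WT growth and 0 in the growth interaction. No filter gave 1 in WT growth and 0 in the growth interaction. A minimum mean of 5 FPKM gave 2 at MII, and using only the libraries compared gave 2 at MII and 0 in the growth interaction. Leaving out 1 library gave 0 to 1 calls in growing, 1 to 5 in GV and 1 to 2 in MII oocytes, 0 to 3 in WT growth and 0 to 1 in the growth interaction.

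Signs turned under the scalings as follows. Without the ERCC factor the WT maturation changes became 0.103 in Pdhb, 0.268 in Cs and 0.807 in Ogdh, and the null ones 0.679 in Pdhb and 0.495 in Ogdh. Under median scaling they became 0.784, 0.953 and 1.43 in WT, and 1.17 in Pdhb, 0.95 in Ogdh, 0.483 in Cs and 0.287 in Idh3a in null oocytes. The GV genotype difference of Dlat became 0.0428 and 0.0937. The maturation interaction of Dlat became -0.0713 and -0.235 and that of Fh1 -0.117 and -0.293. Growth changes of Fh1 became 0.0181 and 0.00466 in WT and 0.0878 and 0.172 in null, and that of Ogdh 0.0497 in null under median scaling. With 1 library left out, the MII difference of Cs ranged from -0.353 to 0.0711 and the maturation interaction of Pdha1 from -0.304 to 0.131, without a call, but the latter was called at -0.913 without the ERCC factor and at -1.01 under median scaling. The cause was not tested. Of the 44 uncalled results, 23 changed sign without the ERCC factor.

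Replicate numbers were tested as a replicate block. The same-numbered libraries deviated together in growing (correlation 0.269 over 5322 genes) and MII oocytes (0.189) but not at GV (-0.27). Correlations of mixed sign cannot decide whether same-numbered libraries share a batch. The block changed no call, with 3 members called at GV and 1 at MII as before. Depth limits Mdh2 in WT MII oocytes, which rested on 27 and 52 reads.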
